A study of Cavia porcellus with 12 samples.

Results

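The 9 genes described here encode enzymes of the route from hydroxymethylglutaryl-CoA (HMG-CoA) synthesis to the epoxidation of squalene, together with *GGPS1* on the geranylgeranyl side branch. Not every step of the route is among them. They are *HMGCS1*, *MVK*, *PMVK*, *MVD*, *IDI1*, *FDPS*, *GGPS1*, *FDFT1* and *SQLE*. They were taken by symbol, in the order of the pathway, from the 11896 human orthologue symbols of the deposited guinea pig expression table, and all 9 were present. RNA of the liver was compared between 6 guinea pigs with nonalcoholic steatohepatitis (NASH) and 6 healthy controls. All were female animals of the Dunkin Hartley strain. The NASH animals had received a high-fat diet with sucrose and added cholesterol for 25 weeks and were chosen for bridging fibrosis. The controls had received chow without added cholesterol for the same 25 weeks and were picked at random among animals without NASH. Diet and disease therefore cannot be told apart in this comparison. By the study's methods the animals entered it at a single age, and blood was part of the tissue because livers were not perfused. Animals are named by their group and number in the labels.

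The mevalonate pathway builds isoprene units from acetyl-CoA. HMG-CoA synthase starts the route to mevalonate, kinases and a decarboxylase turn it into isopentenyl diphosphate, and prenyltransferases join these units to farnesyl diphosphate. From there the pathway divides. Squalene synthase and squalene epoxidase commit farnesyl diphosphate to sterols, whereas other enzymes use it for geranylgeranyl groups, ubiquinone, dolichol and protein prenylation. In liver, genes of the sterol route are known targets of SREBP2, a transcription factor released from the endoplasmic reticulum when sterols are scarce, and dietary cholesterol is known to restrain it.

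Controls had total counts from 16980274 to 28636467, and animals with NASH from 23704607 to 33091460. Levels are in CPM, a unit that sets counts against the library total, here after TMM scaling for differences in composition. TMM factors ran from 0.804 to 0.875 for controls and from 1.12 to 1.24 for NASH. The count of a member in an animal was never under 97 and reached 6140. CPM does not correct for transcript length, so levels are compared between animals and not between genes. The row behind *SQLE* also carried the symbol *ZNF572*, its neighbour in the RefSeq gene table, and the row behind *IDI1* also carried *ATP5MC2*, an ATP synthase subunit that is not its neighbour there. Reads of the partner gene cannot be separated from those of *SQLE* or *IDI1*. Nothing in the labels says more on how the animals were grouped in the laboratory, and no batch was compared.

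Of the 9 genes, 8 were lower in NASH by edgeR's quasi-likelihood test (Benjamini-Hochberg adjusted p under 0.05). None was higher, and none would be by edgeR at an unadjusted p under 0.05 (0 of 9) or by DESeq2 (0 of 9). The lower genes were 88.9% of the genes, where 26.0% of all genes tested were lower and 27.9% higher. On the log2 scale the median change was -0.86 over the 9 genes and 0.00 over all 11896. In 5 of the 9, every animal with NASH lay below every control, as did 15.3% of all genes tested. The lowest log2 fold changes were those of the enzymes that commit farnesyl diphosphate to sterols, *FDFT1* and *SQLE*. *GGPS1*, which leads away from sterols, was the gene that did not pass the test. The summed level of the 9 genes was 622 ± 123 CPM in controls (SD, n = 6) and 276 ± 21.6 CPM in NASH (SD, n = 6), ranging from 457 to 821 and from 250 to 297. Without TMM factors, using the library total only, the median of all genes moved to 0.48, 6 members were lower and *GGPS1* was higher, where 7.66% of all genes tested were lower and 63.9% higher. The member median stayed 0.86 below that of all genes. Scaled instead to the hepatocyte marker genes, whose levels are given with the cell markers, a choice made after seeing the data, 2 members were lower and 1 was higher, where 2.70% of all genes tested were lower and 83.5% higher. The member median was then 0.052 and that of all genes 0.91, so the gap of 0.86 was kept.

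**Figure D1:**
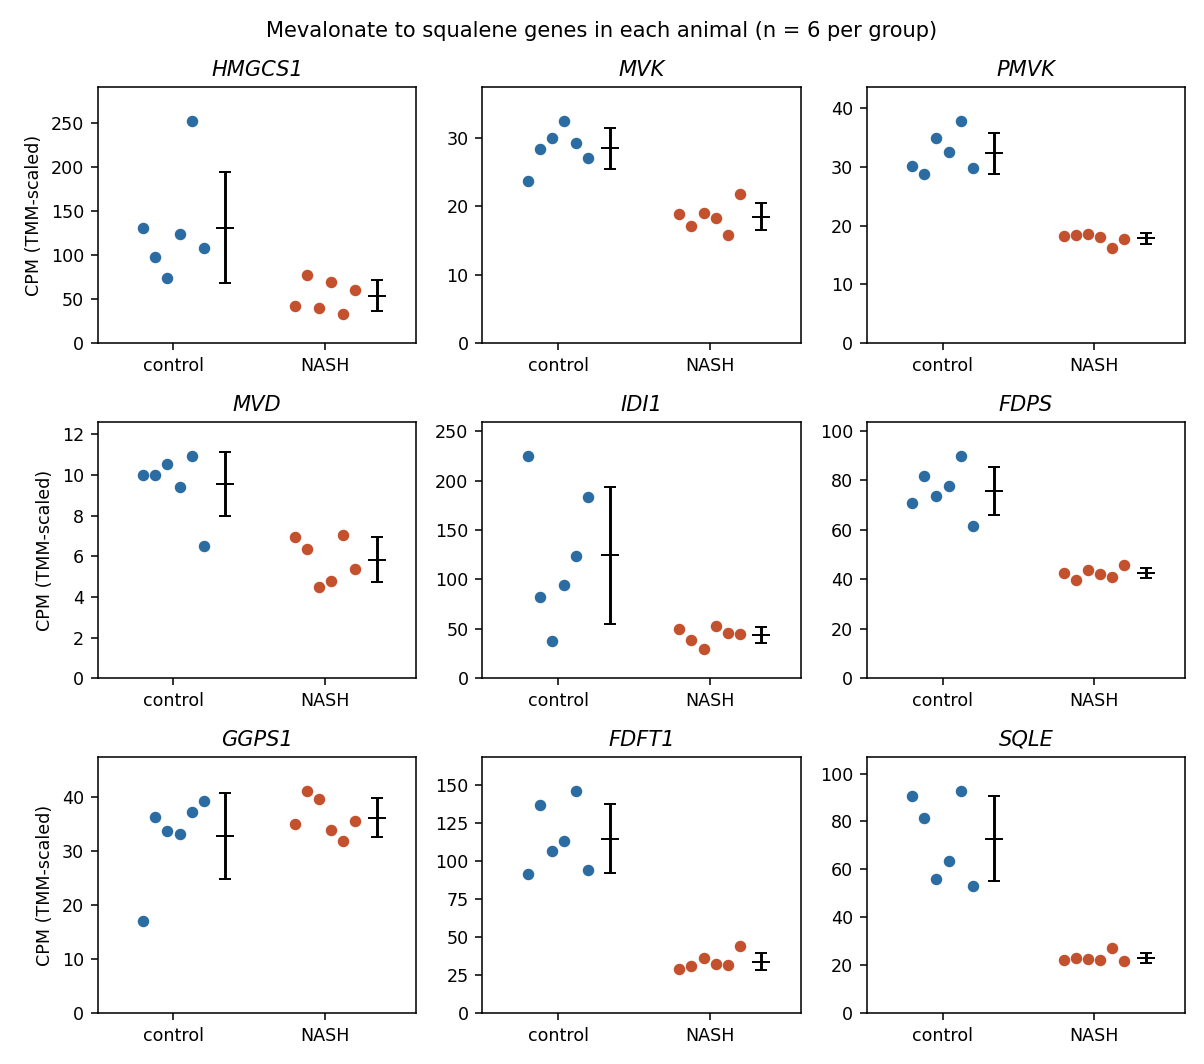
CPM after TMM scaling (y axis, from 0, a scale of its own in each panel) of the 9 genes in 6 controls (blue) and 6 guinea pigs with NASH (red). Each point is an animal, and black marks give the mean with the SD. The groups stand apart in *MVK*, *PMVK*, *FDPS*, *FDFT1* and *SQLE*, meet in *HMGCS1*, *MVD* and *IDI1*, and overlap in *GGPS1*.

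*HMGCS1*, the cytosolic HMG-CoA synthase that opens the route, ranged from 73.8 to 253 CPM in controls (median 116) and from 33.3 to 77.5 CPM in NASH (median 51.4). The groups met at a single point, since NASH 9 at 77.5 CPM was above control 31 at 73.8 CPM. The level in NASH was 2.43-fold lower (log2 fold change -1.28, SE 0.30, adjusted p = 0.00271 by edgeR). Control 45, at 253 CPM, stood well above the next control at 131 CPM, and without it the log2 fold change was -0.99 (adjusted p = 0.00355 by edgeR). Scaled to hepatocyte markers, *HMGCS1* did not pass (-0.37, adjusted p = 0.257 by edgeR). *ACAT2*, which supplies acetoacetyl-CoA to HMG-CoA synthase, ranged from 317 to 445 CPM in controls and from 184 to 282 CPM in NASH. It fell by 0.78 on the log2 scale (SE 0.12, adjusted p = 0.000113 by edgeR), with every animal with NASH below every control. It did not pass under the hepatocyte scaling either (0.13, adjusted p = 0.381 by edgeR).

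The kinases and the decarboxylase that turn mevalonate into isopentenyl diphosphate had log2 fold changes between -0.86 and -0.63. *MVK*, mevalonate kinase, ranged from 23.6 to 32.5 CPM in controls (median 28.9) and from 15.8 to 21.7 CPM in NASH (median 18.6). The groups did not overlap, and the log2 fold change was -0.63 (SE 0.09, adjusted p = 9.12e-05 by edgeR). *PMVK*, phosphomevalonate kinase, ranged from 28.7 to 37.9 CPM in controls (median 31.3) and from 16.1 to 18.5 CPM in NASH (median 18.2). It was 1.81-fold lower (log2 fold change -0.86, SE 0.08, adjusted p = 1.85e-06 by edgeR), and the animals with NASH lay within a narrow band far under the controls. *MVD*, the mevalonate diphosphate decarboxylase, had the smallest counts of the 9 genes and ranged from 6.53 to 10.9 CPM in controls and from 4.49 to 7.04 CPM in NASH (median 5.86). Only control 56, at 6.53 CPM, reached into the NASH range, where NASH 2 at 6.97 and NASH 41 at 7.04 CPM were above it. *MVD* changed by -0.71 on the log2 scale (SE 0.15, adjusted p = 0.00132 by edgeR). Scaled by the library total only, *MVK* (-0.16, adjusted p = 0.164 by edgeR) and *MVD* (-0.24, adjusted p = 0.184 by edgeR) no longer passed the test. Scaled to hepatocyte markers, none of the 3 passed and their signs turned, to 0.27 in *MVK*, 0.052 in *PMVK* and 0.19 in *MVD* (adjusted p = 0.0697, 0.724 and 0.299 by edgeR). The median of all genes stood at 0.91 under this scaling.

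*IDI1*, the isomerase that provides the allylic starter for chain elongation, varied most among controls. Its control values were 37.3 CPM in control 31, 82.2 in control 10, 94.8 in control 32, 124 in control 45, 184 in control 56 and 225 in control 5. In NASH they were 29.9 CPM in NASH 11, 39.1 in NASH 9, 44.9 in NASH 65, 46.1 in NASH 41, 50.2 in NASH 2 and 52.7 in NASH 20. The highest control was 6.03 times the lowest, against 1.76 times in NASH, and control 31 was the control that overlapped with NASH, below 5 of its 6 animals. The mean level fell from 125 ± 69.2 to 43.8 ± 8.27 CPM (SD, n = 6 each). Its log2 fold change was -1.51 (SE 0.35, adjusted p = 0.00263 by edgeR). The highest controls, 5 and 56, were also the libraries with the smallest totals. Without both, a choice made after seeing the data, the log2 fold change was -0.95 (adjusted p = 0.0144 by edgeR), and scaled to hepatocyte markers it was -0.59 and did not pass (adjusted p = 0.129 by edgeR).

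*FDPS*, farnesyl diphosphate synthase, stands where the sterol and nonsterol branches part. It ranged from 61.6 to 89.9 CPM in controls (median 75.5) and from 39.9 to 45.9 CPM in NASH (median 42.4), without overlap. It was 1.78-fold lower (log2 fold change -0.83, SE 0.08, adjusted p = 4.77e-06 by edgeR), but at 0.074 did not pass when scaled to hepatocyte markers (adjusted p = 0.575 by edgeR). *GGPS1*, which extends farnesyl to geranylgeranyl diphosphate for protein prenylation, ranged from 17.0 to 39.1 CPM in controls (median 34.9) and from 31.8 to 41.1 CPM in NASH (median 35.2). Apart from control 5 at 17.0 CPM, the groups covered the same range. Its log2 fold change was 0.14 (SE 0.16, adjusted p = 0.486 by edgeR), which corresponds to a level in NASH of 1.103 times that in controls with a 95% interval from 0.858 to 1.42. Without control 5 the log2 fold change was 0.010 (SE 0.08), and without control 56 it was 0.197 (SE 0.17). The fold changes of the other 8 genes, the shallowest of which was 0.647 times the control level in *MVK*, all lie below this interval. On the library total, *GGPS1* was higher in NASH (0.61, adjusted p = 0.00673 by edgeR), which is 0.13 above the median of all genes when so scaled.

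*FDFT1*, squalene synthase, fell most of the 9 genes. It ranged from 91.3 to 146 CPM in controls (median 110) and from 28.9 to 44.4 CPM in NASH (median 31.96). The lowest control was thus far above the highest animal with NASH, NASH 65. The level was 3.38-fold lower (log2 fold change -1.76, SE 0.14, adjusted p = 7.35e-07 by edgeR). *SQLE*, squalene epoxidase, the step that brings in oxygen and a second point of control of the pathway, ranged from 53.0 to 92.8 CPM in controls (median 72.4) and from 21.7 to 27.4 CPM in NASH (median 22.4). It was 3.13-fold lower (log2 fold change -1.65, SE 0.15, adjusted p = 1.67e-06 by edgeR). The log2 fold changes of *FDFT1* and *SQLE* stood at percentiles 1.13 and 1.299 of all genes tested, and those of *IDI1* and *HMGCS1* at 1.81 and 3.06. When the null hypothesis was a change of up to 1 on the log2 scale, *FDFT1* (adjusted p = 0.000314 by edgeR) and *SQLE* (adjusted p = 0.00128 by edgeR) were the members that passed.

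Whether genes next to each other in the list, which are not always consecutive steps, moved by unequal amounts was tested with the log2 ratio of each gene to the next within an animal, which does not depend on the scaling between libraries. Each of the 8 ratios was compared between groups by an exact permutation test, two-sided, that ran through all splits of the 12 animals, and p-values were adjusted over the 8 pairs. The ratio of *FDPS* to *GGPS1* dropped by 1.01 on the log2 scale, from 1.25 ± 0.45 to 0.24 ± 0.16 (SD, n = 6 each), with 6 of 6 animals with NASH below every control (exact p = 0.00216, the smallest that 6 against 6 allow, adjusted p = 0.00866). The ratio of *GGPS1* to *FDFT1* went from -1.84 ± 0.38 to 0.10 ± 0.25 (SD, n = 6 each), a 3.82-fold shift, with 6 of 6 animals with NASH above every control (exact p = 0.00216, adjusted p = 0.00866). *GGPS1* thus parted from the genes on either side of it in the list. *FDFT1* to *SQLE* moved by -0.13, which is within the spread between animals (exact p = 0.483, adjusted p = 0.483), and by -0.27 without control 5 and -0.066 without NASH 41. *MVK* to *PMVK* moved by 0.23, with 4 of 6 animals with NASH above every control (exact p = 0.0216, adjusted p = 0.0577), and passed the threshold when control 10 (adjusted p = 0.0346, exact permutation test) or control 32 (adjusted p = 0.0289, exact permutation test) was left out. *MVD* to *IDI1* moved by 0.60 (exact p = 0.229, adjusted p = 0.361), and without control 31 by 0.94 (adjusted p = 0.0404, exact permutation test). The remaining 3 ratios, *HMGCS1* to *MVK*, *PMVK* to *MVD* and *IDI1* to *FDPS*, moved by -0.61, -0.14 and -0.49, and their adjusted p-values were 0.173, 0.455 and 0.361 by the exact permutation test. With animals left out in turn they ran from -0.77 to -0.41, from -0.22 to -0.055 and from -0.78 to -0.25, and none passed the threshold.

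**Figure D2:**
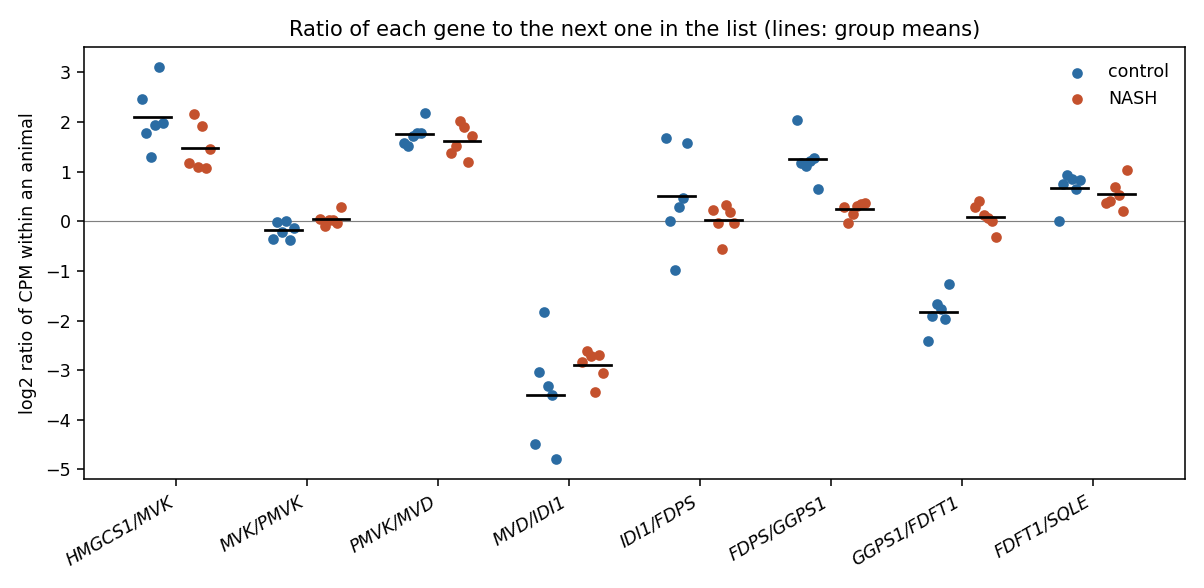
Log2 ratio of the CPM of each gene to that of the next gene in the list (y axis) for the 8 neighbouring pairs (x axis). Each point is an animal, controls in blue and NASH in red, and black lines are group means. The groups separate completely in the pairs that contain *GGPS1* and overlap in the other 6.

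The spread between animals was described gene by gene, without a test. The SD on the log2 scale was smaller in NASH in 8 of the 9 genes, *MVD* being the exception, and in 63.8% of all genes tested, where library depth was also greater in NASH. In *IDI1* the SD was 0.93 in controls and 0.30 in NASH, in *SQLE* 0.36 and 0.12, and in *FDPS* 0.19 and 0.07. *MVK* (0.16 and 0.15) hardly differed between the groups. Control 45 was above the mean of its group in all 9 genes and was the highest control in 6 of them. The other controls had no such common position. Control 5 had the highest *IDI1* of the group and the lowest *GGPS1*, *MVK* and *FDFT1*. Control 56 had the lowest *MVD*, *FDPS* and *SQLE* beside a high *IDI1*. In NASH 41, *HMGCS1*, *MVK*, *PMVK* and *GGPS1* were the lowest of the group while *MVD* and *SQLE* were the highest.

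**Figure D3:**
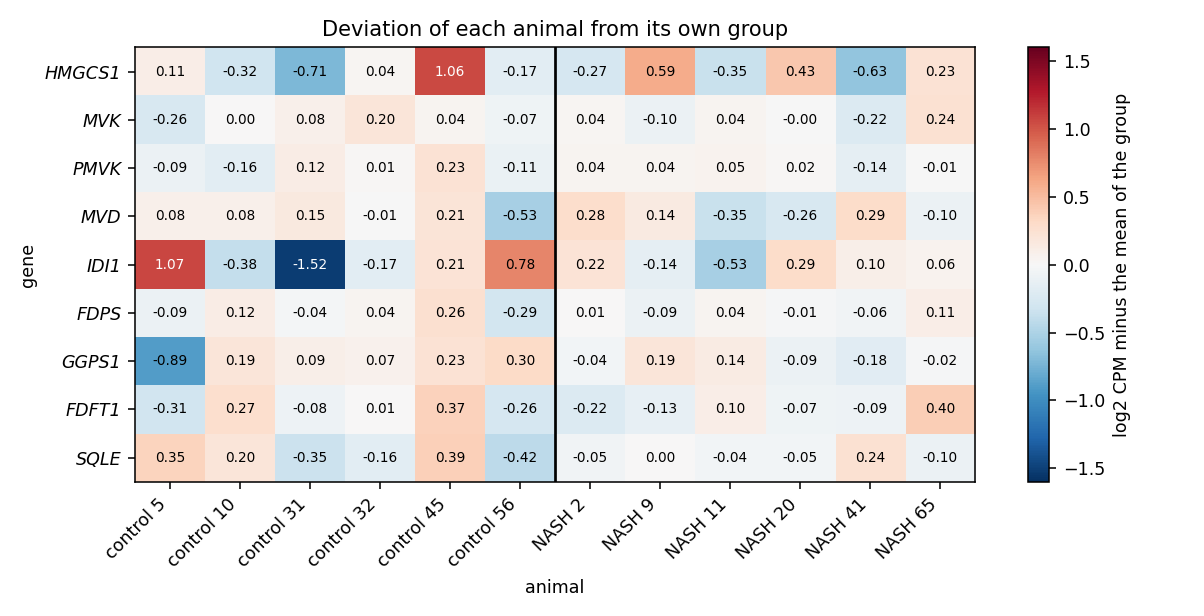
Deviation of each animal (x axis) from the mean of its own group, in log2 CPM, for the 9 genes (y axis). Red is above and blue below the group mean, and the black line divides controls from NASH. Control 45 is above its group mean in all 9 genes, and *IDI1* spans from -1.52 in control 31 to 1.075 in control 5.

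After each gene was centred within its group, the 36 pairs of members correlated over the 12 animals with a Pearson's r between -0.46 and 0.84 and a median of 0.28. These correlations are descriptions, since the values of an animal share its library. *FDPS* and *FDFT1*, the consecutive enzymes around farnesyl diphosphate, were the closest pair, with r = 0.84 over all animals, 0.91 over the 6 controls and 0.80 over the 6 animals with NASH. *IDI1* and *MVK* were the most opposed (r = -0.46). The median over the pairs was 0.42 in controls and -0.04 in NASH. The mean profile of the 9 members did not stand for each of them, since the correlation of a member with the mean of the other 8 was 0.012 for *MVK*, -0.003 for *MVD*, -0.105 for *IDI1* and -0.17 for *GGPS1*. Over the 12 animals, the genes closest to the mean profile of the 9 members were *PCMTD2.1* (r = 0.87), *KATNAL1* (0.87), *NUP210* (0.86), *TM4SF5* (0.84) and *TSPAN31* (0.84), out of 11885 candidates. With the deposited rlog values, 3 of these 5 were again among the closest 5. For *TM4SF5* and *TSPAN31* the likeness was that of the controls, with r = 0.95 and 0.925 over the 6 controls but -0.14 and 0.14 over the 6 animals with NASH. The other 3 had r from 0.91 to 0.92 in controls and from 0.68 to 0.76 in NASH. Of these genes, *KATNAL1*, which encodes a microtubule-severing protein, was lower in NASH by edgeR's test (-0.79, adjusted p = 0.00106), and the other 4 did not pass.

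The rest of the cholesterol pathway was looked up in the same test. Of the 11 genes listed here that act between squalene epoxide and cholesterol, 10 were in the table, and all 10 were lower in NASH, 8 of them without overlap between the groups, where 26.0% of all genes were lower and 15.3% lower without overlap. The rows behind *TM7SF2* and *EBP*, both among those 8, also carried a further symbol, so reads of a partner gene cannot be separated there. The median was -1.67 on the log2 scale, against -0.86 over the 9 upstream genes and 0.00 over all genes. *MSMO1*, a methylsterol oxidase, had the lowest value of the 10, falling from 171 ± 54.6 to 26.9 ± 2.57 CPM (SD, n = 6 each), or 6.37-fold (log2 fold change -2.67, SE 0.19, adjusted p = 3.69e-07 by edgeR). *ERG28*, a scaffold protein of sterol demethylation, had the highest, -0.59 (SE 0.10, adjusted p = 0.000373 by edgeR). With library size alone 9 of the 10 were called lower (7.66% of all genes), with DESeq2 all 10, and scaled to hepatocyte markers 8 (2.70% of all genes). *ERG28* lost its call with library size alone (-0.12, adjusted p = 0.348 by edgeR) and stood at 0.33 when scaled to hepatocyte markers (adjusted p = 0.0713 by edgeR).

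**Figure D4:**
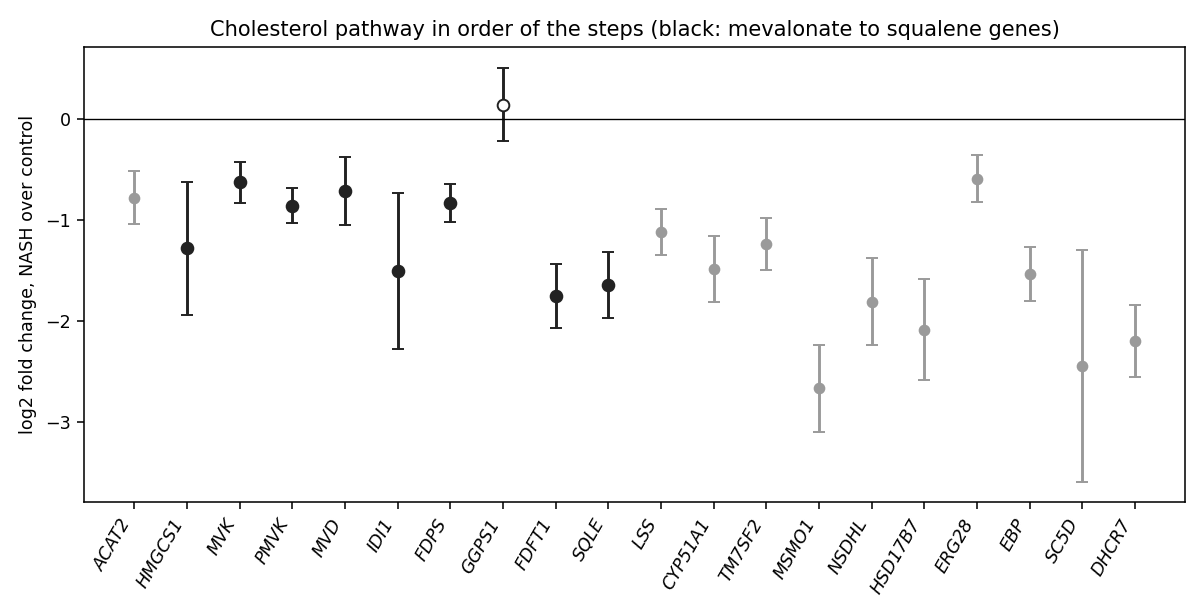
Log2 fold change in NASH over control (y axis) with the 95% interval, for genes in the order of the pathway (x axis). Black points are the 9 genes of mevalonate to squalene synthesis and grey points *ACAT2* and later sterol steps, and an open point did not pass the test. *GGPS1* is the open point near 0, and *MSMO1* the lowest, at -2.67.

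Genes that sense sterols or take up LDL did not move together. Of the 10 listed, 9 were in the table, of which 4 passed the test as lower and 2 as higher, against 26.0% and 27.9% of all genes. The list had a median of -0.91 on the log2 scale. *SREBF2*, which encodes SREBP2, fell from 95.1 ± 11.03 to 50.6 ± 8.07 CPM (SD, n = 6 each). Its log2 fold change was -0.91 (SE 0.11, adjusted p = 1.9e-05 by edgeR), without overlap. *SREBF1*, whose product drives fatty acid synthesis genes, went the other way, from 15.4 ± 7.53 to 50.2 ± 8.85 CPM (SD, n = 6 each). Its log2 fold change was 1.70 (SE 0.29, adjusted p = 0.000284 by edgeR). *MBTPS2*, a protease that releases SREBP, was the other gene called higher (0.63, SE 0.13, adjusted p = 0.00138 by edgeR). In *MBTPS1* every animal with NASH lay above every control, but the gene did not pass (0.12, SE 0.05, adjusted p = 0.0555 by edgeR). *INSIG1*, which holds SREBP in the endoplasmic reticulum and is a known SREBP2 target, had the lowest log2 fold change of the list. It fell from 292 ± 119 to 136 ± 29.8 CPM (SD, n = 6 each), without overlap. Its log2 fold change was -1.10 (SE 0.25, adjusted p = 0.0023 by edgeR). The symbol *INSIG2* stood on a pair of rows. The row counted in the list was at 0 in all but a pair of animals and did not pass, and the other, *INSIG2.1*, fell from 344 ± 94.9 to 159 ± 32.3 CPM (SD, n = 6 each), which is -1.12 on the log2 scale (SE 0.19, adjusted p = 0.000354 by edgeR). With DESeq2, 4 genes of the list were lower and 3 higher, where 3244 of all 11896 genes were lower and 3439 higher. Scaled by the library total, 3 genes of the list were lower and 4 higher, against 7.66% and 63.9% of all genes. Scaled to hepatocyte markers, 0 were lower and 4 higher, against 2.70% and 83.5%, and *SREBF2* (-0.021, adjusted p = 0.864 by edgeR) and *INSIG1* (-0.17, adjusted p = 0.534 by edgeR) no longer passed.

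Genes that use farnesyl or geranylgeranyl diphosphate for other products were called about as often as all genes. Of the 18 listed, 17 were found: 3 lower, 6 higher and 8 not past the test, against 26.0% lower and 27.9% higher among all genes. Their median was 0.05 on the log2 scale. *SRD5A3*, which completes dolichol, had the highest value, 1.62 (SE 0.16, adjusted p = 3.64e-06 by edgeR). *DOLPP1*, which recycles dolichol, had the lowest, -0.49, and did not pass (SE 0.44, adjusted p = 0.368 by edgeR). By the library total, 11 of the 17 passed the test, each of them as higher, a share near the 63.9% of all genes that were higher under that scaling.

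Of the 11 listed genes that serve the degradation of sterol enzymes, 9 were found, 4 of them lower and 1 higher, against 26.0% and 27.9% of all genes. Their median was -0.13. *MARCHF6*, the ubiquitin ligase that removes squalene epoxidase, was lowest, at -0.66 (SE 0.09, adjusted p = 7.74e-05 by edgeR), and passed neither by the library total (-0.19, adjusted p = 0.0686 by edgeR) nor scaled to hepatocyte markers (0.25, adjusted p = 0.0765 by edgeR). *RNF145*, a sterol-responsive ubiquitin ligase, was the gene that rose, by 0.84 (SE 0.14, adjusted p = 0.000314 by edgeR). By the library total, 5 of the 9 passed the test, each of them as higher, against 63.9% of all genes.

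Markers of several liver cell types moved with the same comparison, and their counts are to be read against 26.0% lower and 27.9% higher among all genes. Of 14 hepatocyte markers, 12 were in the table and 11 of them were lower in NASH. Their median was -0.73, and their summed level was between 119000 and 143000 CPM in controls and between 53500 and 80300 CPM in NASH. Of 10 stellate cell markers, 8 were higher and the other 2 did not pass, with a median of 1.497 and summed levels from 631 to 782 CPM in controls and from 1330 to 2580 CPM in NASH. Of the 6 cholangiocyte markers found of 8 listed, 5 were higher and the other did not pass (median 2.53), with sums from 93.2 to 142 CPM and from 331 to 580 CPM. All 4 erythroid markers found of 7 were higher (median 4.14), with sums from 57.4 to 172 CPM and from 427 to 4530 CPM. Macrophage and T cell markers were called no more often than all genes. Of the macrophage markers 7 of 10 were found, 2 higher and 1 lower (median 0.33), with sums from 308 to 580 CPM and from 504 to 704 CPM, and of the T cell markers 7 of 8, also 2 higher and 1 lower (median 0.04), with sums from 62.4 to 118 CPM and from 49.2 to 75.5 CPM. Most of the T cell sum came from *CD3E*, the marker that was lower, with means of 69.0 CPM in controls and 33.0 CPM in NASH. The fall of that sum thus rests mainly on a single row. None of the markers found was at 0 in all animals. The hepatocyte markers fell by unequal amounts, from -2.20 in *TTR* to -0.18 in *ASGR1* on the log2 scale. In these bulk samples, fewer hepatocytes, less RNA per hepatocyte and lower expression of the marker genes themselves cannot be told apart. When the counts were scaled to the geometric mean of the hepatocyte markers, the median of all genes moved to 0.91. Under this scaling *FDFT1* (-0.86, adjusted p = 3.48e-05 by edgeR) and *SQLE* (-0.74, adjusted p = 0.000304 by edgeR) were still lower, *GGPS1* was higher (1.05, adjusted p = 0.000118 by edgeR), and the other 6 members did not pass the test. Of the 10 later sterol genes 8 were still lower, against 2.70% of all genes. Of the branch genes 15 of 17, and of the degradation genes 8 of 9, were higher and 0 lower, against 83.5% of all genes higher. The part of the other cell types in the results was not tested.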

How the data were processed

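Liver mRNA of 12 guinea pigs was sequenced from a single end with a stranded kit. According to the study's methods and processing notes, the authors trimmed reads with Trimmomatic 0.38.0, mapped them to Cavpor3.0 with HISAT2 2.1.0, ignored multimapped reads and quantified loci with StringTie 1.3.6. The authors deposited raw counts per locus, and log2 values made from them by the rlog transformation of DESeq2 for human orthologue symbols with a total of at least 200 counts. The count table has no symbols. Symbols were paired with count rows by running the rlog transformation again, which recovered all 11896 symbols within 8e-07, from 11031 rows.

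Counts were tested in R 4.3.3 with edgeR 4.0.16 (TMM, robust glmQLFit, glmQLFTest, NASH against control) over all 11896 symbols, with an adjusted p-value under 0.05. An SE is the absolute log2 fold change over the square root of F, and 95% intervals use 10 degrees of freedom. Log2 CPM values have a prior count of 2. Alternatives were other scalings, DESeq2 1.42.0, limma 3.58.1 (voom, and on rlog values), other filters and thresholds, and leaving out animals. The tests were checked on simulated counts. Named genes were the 9 members, the entry steps, and in each list the highest, the lowest and those called against most of the list. *SREBF2*, *MBTPS1*, *INSIG2*, *INSIG2.1*, *TM7SF2* and *EBP* were added after their values were seen. Gene relations come from a RefSeq table of mCavPor4.1, so no coordinates are given. A numeric suffix marks a further locus with the same symbol, used in a list where the plain symbol was missing (*PGGT1B.1*). Members and lists were chosen with earlier results of these data known. P-values weigh the difference between the groups against the spread between these animals. A few genes, and 1 list, are not reported here, and the counts leave them out.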

Additional observations from a re-analysis of the deposited data

Results flagged for a closer look

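In each group of 6 animals, the distance of the highest or lowest animal to its nearest neighbour was compared with the whole range of the group. Of the 18 groups of the 9 genes, 5 held an animal whose share of the range was above Dixon's 95% critical value, where chance gives about 1 in 20. That rate assumes normal values and independent groups, whereas the genes share the same animals. CPM was used without a log, and flags can differ on the log2 scale, which was not tested. In controls, *HMGCS1* was at 253 CPM in control 45, with the next animal at 131 CPM (gap 0.681 of the range). *MVD* was at 6.53 CPM in control 56, with the next at 9.41 CPM (0.652). *GGPS1* was at 17 CPM in control 5, with the next at 33.2 CPM (0.732). In NASH, the same animal stood apart in a pair of genes. NASH 41 had 16.1 CPM of *PMVK*, under the next at 17.7 CPM (0.653), and 27.4 CPM of *SQLE*, above the next at 23.2 CPM (0.743). With any of these animals left out, the 8 genes called lower were still called lower by edgeR's test.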

How the results depend on the processing

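The number of members called lower stayed at 8 with each animal left out, without controls 5 and 56, with RLE or upper-quartile factors, DESeq2, limma-voom, limma on rlog values, wider filters and an adjusted p under 0.01, and was 6 with library size alone. It was 2 when a change of over 1 on the log2 scale was required of the test, and 2 when scaled to hepatocyte markers. With library size alone, 1 member was higher (*GGPS1*, 0.61), and *MVK* (-0.16) and *MVD* (-0.24) lost their call. When scaled to hepatocyte markers, 1 member was higher (*GGPS1*, 1.05), *HMGCS1* (-0.37) and *IDI1* (-0.59) lost their call, and *MVK* (0.27), *PMVK* (0.052), *MVD* (0.19) and *FDPS* (0.074) changed sign without passing the test. Both scalings shift all genes, by 0.48 and 0.91, and the member median stayed 0.86 below that of all genes in each. With animals left out in turn, the ratio change of *MVK* to *PMVK* lay between 0.17 and 0.26 and that of *MVD* to *IDI1* between 0.34 and 0.94, and the ratios that contain *GGPS1* kept their calls. No paired analysis was possible because the groups share no animal numbers. Depth limits *MVD* most, whose smallest count was 97. The cause of each change was not tested.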
